A study of Homo sapiens with 32 samples.

Results

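The combination of salinomycin and dasatinib (S + D) was followed in MDA-MB-468 cells from 24 to 72 h, and each gene was asked whether its response to S + D was early, late, lasting or reversed. MDA-MB-468 is an established triple negative breast cancer cell line. Sal (salinomycin) is a polyether ionophore that carries potassium ions across membranes, and Das (dasatinib) is an inhibitor of SRC and ABL family kinases. The 16 libraries that carry the question are 4 each of control at 24 h, S + D at 24 h, control at 72 h and S + D at 72 h, out of 32 in the series. Control cells received phosphate-buffered saline, and S + D cells received 0.5 μM Sal together with 15 μM Das. All groups were the same line, in RPMI medium with 10% fetal bovine serum, and the other 16 libraries held the same doses of Sal alone or Das alone at the same times. The line is 1 model of the disease.

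For each gene the response is the log2 fold change of S + D against the control of the same time, and the change is the response at 72 h minus the response at 24 h. A positive change means that S + D stood higher relative to its control at 72 h than at 24 h. Levels are given as CPM, counts per 1000000 counts of a library after scaling of the totals. The change passed both cutoffs of the study (adjusted p under 0.01 and a log2 value beyond 1.5 in size) in 962 of 17227 genes tested, which is 5.58%. It was higher in 314 genes (1.82%) and lower in 648 (3.76%). At single times 1076 genes (6.25%) passed both cutoffs at 24 h and 3500 (20.3%) at 72 h. The smallest changes inside the cutoff were -1.5003 for PPP1R3C and -1.501 for TTC6, and the nearest outside it were 1.4999 for ELOVL4 and -1.4997 for ST6GAL1.

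Several pathways named here have well known wiring. Epidermal growth factor receptor signalling runs through ERK to immediate early transcription factors such as EGR1 and to feedback inhibitors such as the DUSP and SPRY proteins. Cells leave G1 when cyclin D and CDK4/6 release E2F factors, which switch on genes of DNA replication, while genes of mitosis are switched on later by FOXM1 and B-MYB acting through an element called CHR. Misfolded protein in the endoplasmic reticulum (ER) raises chaperones through ATF6 and XBP1, and blocked translation initiation raises amino acid and stress genes through ATF4. Sterol shortage raises cholesterol genes through SREBP2, and SREBP1 drives fatty acid genes.

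The 16 libraries held between 29616013 and 42769687 counts in genes, with a median of 33828232.5. All 6 epithelial markers (EPCAM, KRT8, KRT18, KRT19, CDH1 and EGFR) were above 1 CPM in every group. Their summed level ran from 9829 to 10283 CPM in control at 24 h, 6163 to 7006 in S + D at 24 h, 10578 to 11578 in control at 72 h and 4665 to 6307 in S + D at 72 h. Of 6 fibroblast markers only COL1A1 exceeded 1 CPM, of 6 leukocyte markers only CD14 did, and of 5 endothelial markers only KDR did. PTPRC, CD3E, COL1A2 and DCN were at or near 0 in every group. COL1A1 stood at 25.3, 48.1, 28.1 and 87.1 CPM and CD14 at 12.9, 2.47, 27.7 and 4.74 CPM, as means of control at 24 h, S + D at 24 h, control at 72 h and S + D at 72 h. In the same order KDR stood at 2.03, 0.339, 6.12 and 0.293 CPM, CDH5 at 0.708, 0.539, 0.273 and 0.0908 CPM and PDGFRA at 0.502, 0.158, 0.787 and 0.0341 CPM. ERBB2 averaged 115 to 143 CPM in 3 groups and 68.5 CPM in S + D at 72 h, ESR1 averaged 5.42 to 7.30 CPM, and PGR was at or near 0. The part of these markers in the results was not tested. In a bulk library, fewer cells of a type and less RNA per cell cannot be told apart. The 4 libraries whose labels carry no replicate number stood apart together: their deviations from their group means correlated with each other at 0.482 to 0.637 across genes, against a median of -0.0463 for libraries with different labels. Values are listed with that unnumbered library first and then replicates 1, 2 and 3, and named genes whose call turns on it are also given without it.

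**Figure D1:**
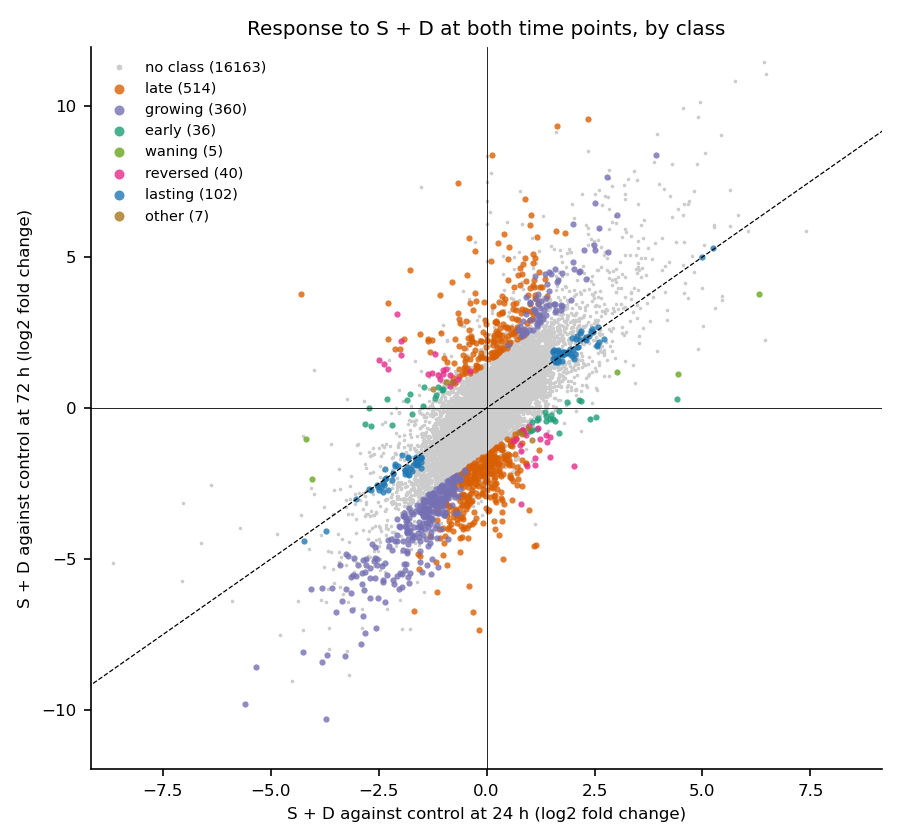
Response to S + D at 24 h (horizontal axis, log2 fold change against control) and at 72 h (vertical axis, same unit) for the 17227 genes tested, coloured by class, with grey for genes in no class and a dashed line where the responses are equal. The late genes lie along the vertical axis, the growing genes lie beyond the dashed line away from 0, and the 40 reversed genes lie where the signs differ.

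The 962 genes were sorted by whether the response passed an adjusted p of 0.01 at each time. The largest class was late, with 514 genes that passed at 72 h alone, 202 higher and 312 lower. The median response of the late higher genes was 0.23 at 24 h and 2.55 at 72 h, and that of the late lower genes was -0.16 and -2.35. A growing response, past the test at both times in 1 direction and larger at 72 h, was found in 360 genes, of which 73 were higher (130 when only the 16 libraries were fitted) and 287 lower, with median responses of 1.32 and 3.43 for the higher genes and -1.40 and -3.53 for the lower. Reversed responses, past the test at both times with opposite signs, were found in 40 genes, or 94 with the numbered libraries alone. Early responses, past the test at 24 h alone, were found in 36, and a waning response, smaller at 72 h but still past the test, in 5. The remaining 7 passed at neither time although the change itself passed.

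A separate class of lasting genes passed both cutoffs at both times in 1 direction and had a 95% interval of the change within 1 log2 unit of 0 on either side. It held 102 genes, 54 higher with median responses of 1.93 and 1.88 and 48 lower with -1.93 and -2.07. In all, 895 genes passed both cutoffs at both times in 1 direction. For 642 of them the interval of the change was not within 1 log2 unit of 0, while the change did not pass both cutoffs. These include genes whose change passed the adjusted p but not the size cutoff, such as CCND1 (-1.32, adjusted p = 1.4e-04), so that its response did change. For those whose change did not pass the adjusted p either, the data do not say whether the response was stable.

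**Figure D2:**
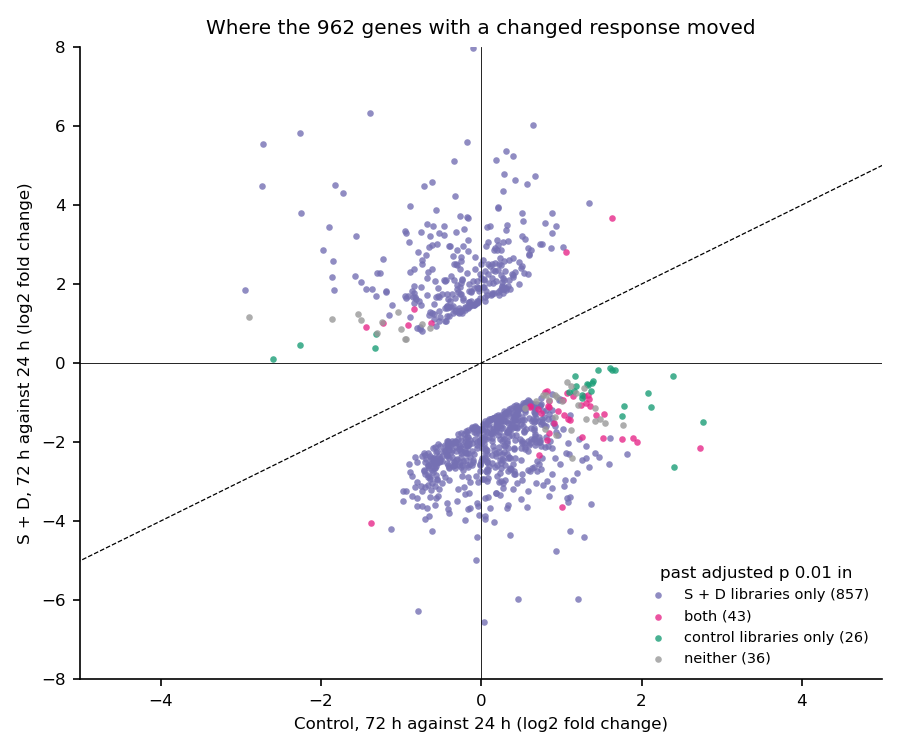
Log2 fold change between 72 and 24 h in control (horizontal axis) and in S + D (vertical axis) for the 962 genes, coloured by which of them passed an adjusted p of 0.01, with a dashed line where they are equal. Most points are spread along the vertical axis, since 857 genes passed in the S + D libraries only.

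The change can come from either arm, so each was tested by itself. S + D at 72 h against S + D at 24 h passed both cutoffs in 1510 genes (8.77%), and control at 72 h against control at 24 h in 49 (0.284%). With the numbered libraries alone these counts were 1786 and 160. At an adjusted p of 0.01 alone, which 35.1% of all genes passed in the S + D arm and 2.76% in the control arm, 857 of the 962 genes moved in the S + D arm only, 26 in the control arm only, 43 in both and 36 in neither. The genes of the control arm are described where they occur.

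The late higher genes were led by ATG9B, AGT, ITGA1 and CUZD1. ATG9B (ENSG00000181652, chr7:150709297-150721586 on GRCh37), which codes for a lipid scramblase of early autophagosomes, had 0.165, 0.121, 0.0549 and 0.125 CPM in control and 0.557, 0.482, 0.256 and 0.1796 CPM in S + D at 24 h. At 72 h it had 0.0808, 0.0335, 0 and 0.0556 CPM in control against 38.7, 23.5, 28.4 and 29.8 CPM in S + D. These are 734 to 1378 counts against 0 to 3, at least 350.1-fold higher with control taken as 3 counts per library. That separation was part of the rule that named the gene. The rule asked it of every gene named by class and size, at each time its response was called. The change passed with an adjusted p of 1.3e-04, but its fitted size depends on the offset added to counts of 0.

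AGT (ENSG00000135744, chr1:230826522-230881322), the precursor of angiotensin, was late too, with no separation at 24 h. It had 0.165, 0.363, 0.357 and 0.157 CPM in control and 0.439, 0.392, 0.351 and 0.1796 CPM in S + D at 24 h. At 72 h control was at 0.296, 0.502, 0.3704 and 0.473 CPM and S + D at 18.4, 24.04, 22.4 and 24.3 CPM. The groups overlapped at 24 h and were far apart at 72 h, and the change was 5.37 (SE 0.69, adjusted p = 2.3e-06). ITGA1, the α1 subunit of a collagen receptor, averaged 0.0935 ± 0.0594 CPM in control and 0.198 ± 0.0844 in S + D at 24 h (SD, n = 4), then 0.118 ± 0.0653 and 8.302 ± 0.619 at 72 h, a change of 5.06 (SE 0.89, adjusted p = 1.1e-04). For CUZD1 the change was 4.45 (SE 0.46, adjusted p = 1.1e-07), but 79.9% of its exon bases are shared with another annotated gene, so its counts are uncertain. TIMP1, an inhibitor of matrix metalloproteases, turned from a response of -0.46 at 24 h (adjusted p = 0.057) to 1.33 at 72 h, a change of 1.79 (SE 0.28, adjusted p = 2.4e-05). In S + D its libraries held 18.7, 16.9, 16.6 and 16.1 CPM at 24 h and 56.95, 85.7, 68.5 and 71.3 CPM at 72 h, with no overlap. Control held 22.3, 24.3, 22.9 and 24.5 CPM at 24 h and 23.4, 29.6, 30.1 and 29.1 CPM at 72 h. Every S + D library of TIMP1 was thus below control at 24 h, although that response missed the test, and above control at 72 h.

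The late lower genes included a matrix protein, an ERK phosphatase, an interferon gene and a Wnt antagonist. FN1 (ENSG00000115414, chr2:216225163-216300796), fibronectin, had 102, 27.4, 32.4 and 33.9 CPM in control and 67.04, 27.5, 29.4 and 30.8 CPM in S + D at 24 h. At 72 h it had 224, 104, 125 and 144 CPM in control and 16.4, 5.57, 9.09 and 10.2 CPM in S + D. The unnumbered library was highest in every group, the groups overlapped at 24 h, and S + D lay below control at 72 h, with a change of -3.51 (SE 0.69, adjusted p = 3.7e-04). DUSP4 (ENSG00000120875, chr8:29190581-29208201), which dephosphorylates ERK in the nucleus, had 122, 93.9, 99.8 and 99.2 CPM in control and 80.8, 118, 121 and 120.3 CPM in S + D at 24 h. At 72 h it had 159, 175, 173 and 174 CPM against 20.9, 21.9, 25.4 and 19.8 CPM. The response went from 0.08 to -2.95, a change of -3.04 (SE 0.19, adjusted p = 6.2e-12). In the 3 numbered libraries S + D was above control at 24 h and below it at 72 h, and without the unnumbered libraries DUSP4 counted as reversed.

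OAS2, an interferon-induced sensor of double-stranded RNA, averaged 6.75 ± 0.4598 and 3.92 ± 0.889 CPM in control and S + D at 24 h and 10.2 ± 0.445 and 0.594 ± 0.265 CPM at 72 h (SD, n = 4), a change of -3.30 (SE 0.40, adjusted p = 1.1e-06). It too depended on the unnumbered libraries for its class, since the numbered ones alone put it among the growing genes. SFRP1, a secreted Wnt antagonist, held 78.99, 162, 156 and 161 CPM in S + D at 24 h and 51.4, 47.1, 55.9 and 52.9 CPM at 72 h, while control held 139, 186, 181 and 183 and then 234, 353, 337 and 302 CPM. From 24 to 72 h the S + D libraries were lower and the control libraries higher, without overlap, and the change was -2.26 (SE 0.29, adjusted p = 2.7e-06). The other late lower genes named by size were CHRM1 with a change of -3.48, KRT38 with -4.11 and GPR12 with -3.43, each with a mean below 9 CPM in every group.

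The growing higher genes named by size were barely expressed in control. GRIN2C (ENSG00000161509, chr17:72838162-72857627), a subunit of the NMDA receptor, had 0.188, 0.0908, 0.247 and 0.157 CPM in control and 2.52, 0.874, 0.639 and 0.838 CPM in S + D at 24 h. By 72 h control had 0.135, 0.0335, 0.0529 and 0.139 CPM and S + D 19.1, 20.2, 19.9 and 17.5 CPM. The groups did not overlap at either time, which the rule that named the gene required. The response went from 2.80 to 7.65, a change of 4.85 (SE 1.09, adjusted p = 0.0014). SCN3B, an auxiliary subunit of sodium channels, averaged 1.76 ± 0.327 CPM in S + D at 24 h and 10.6 ± 1.66 CPM at 72 h (SD, n = 4). Control held 0 to 2 counts of it at 72 h and S + D 287 to 431, at least 123.6-fold higher. MAPK15, an atypical MAP kinase, was at least 65.6-fold higher at 72 h, with 169 to 214 counts against 1 to 3. Their changes passed at adjusted p = 0.004 and 0.008, but with the numbered libraries alone neither did (0.0185 and 0.0256), and the call of MAPK15 was lost in 14 of the 16 fits that left out 1 library and that of SCN3B in 2. The long non-coding RNA PRECSIT averaged 1.05 ± 0.288 CPM in S + D at 24 h and 10.6 ± 1.798 at 72 h, a change of 4.29 (SE 0.85, adjusted p = 4.4e-04).

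**Figure D3:**
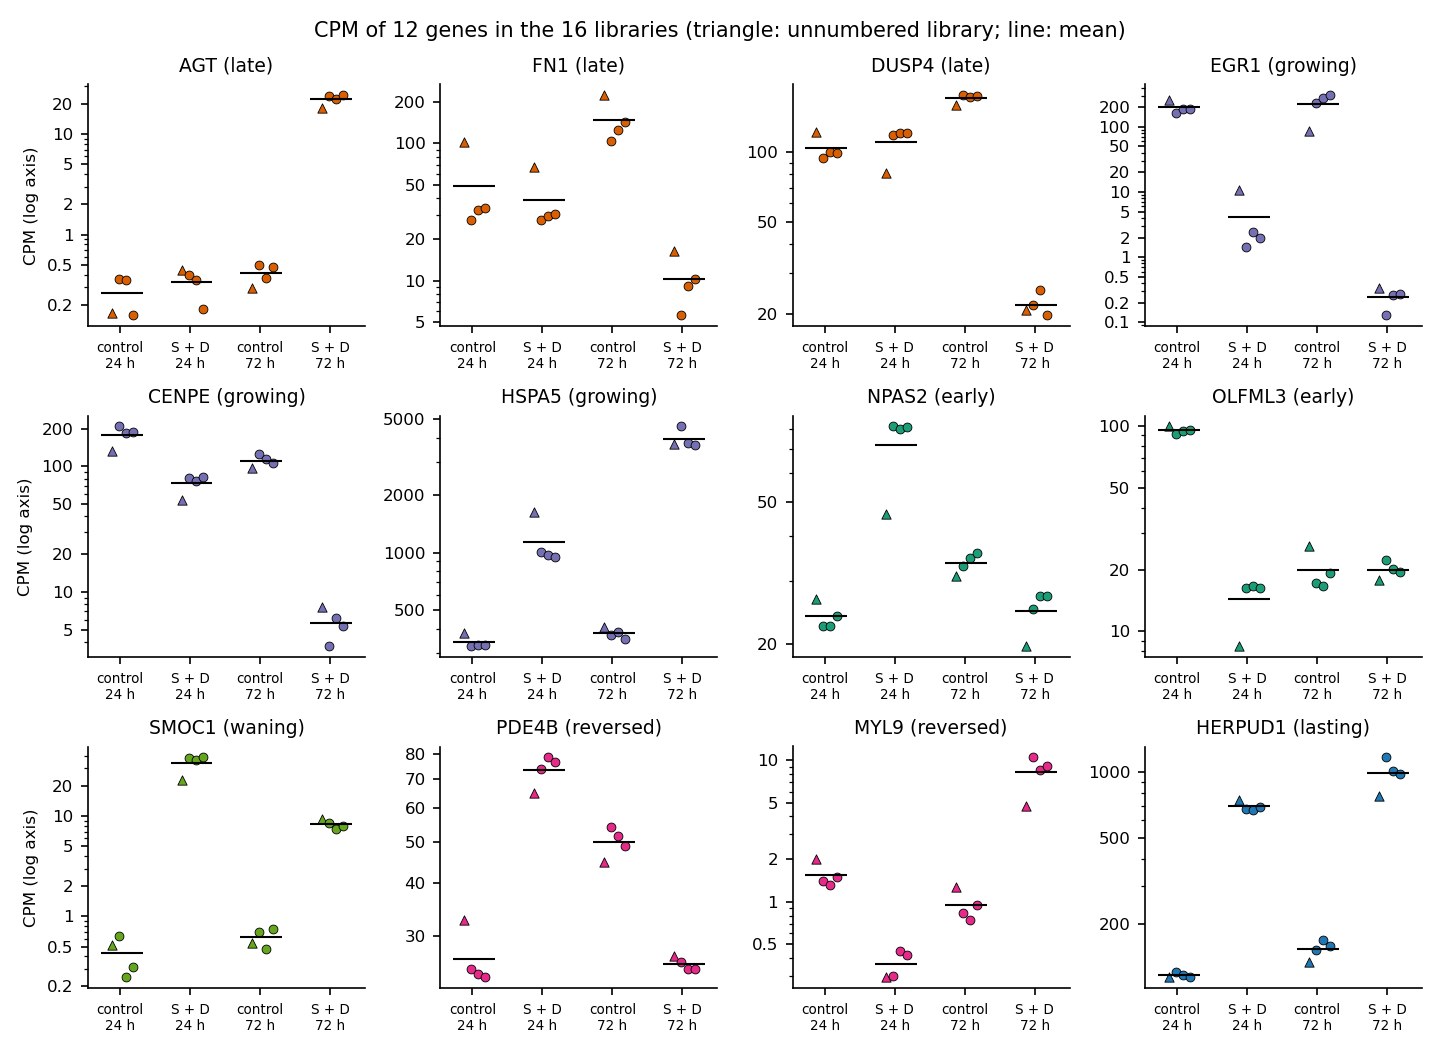
CPM (vertical axis, log scale, its range set for each gene) of 12 genes in the 16 libraries by group (horizontal axis), with a triangle for the unnumbered library, circles for the numbered ones, a line at the mean, and colour by class. The AGT libraries separate at 72 h alone, and those of MYL9 and PDE4B cross between 24 and 72 h.

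The growing lower genes named by size were CLCA2, GABRP, PI3 and LRRC55. CLCA2 (ENSG00000137975, chr1:86889854-86922236), a membrane protein of stratified epithelia, had 21.4, 35.2, 35.96 and 35.4 CPM in control and 2.96, 5.91, 6.26 and 6.496 CPM in S + D at 24 h. By 72 h these were 31.1, 48.95, 41.99 and 41.8 CPM and 0.196, 0.288, 0.3404 and 0.209 CPM. S + D was below control at both times, with the lack of overlap that the naming rule required. The change was -4.72 (SE 0.77, adjusted p = 5.1e-05). GABRP, a subunit of the GABA-A receptor that basal breast cancer cells often express, had a change of -4.90 (SE 0.70, adjusted p = 9.7e-06), and here both arms moved. Its control mean went from 4.69 ± 1.27 to 31.2 ± 10.6 CPM (SD, n = 4, adjusted p = 4.7e-05) and its S + D mean from 0.622 ± 0.108 to 0.132 ± 0.0855 CPM. The basal keratin KRT14 had 1.26, 2.02, 2.396 and 1.74 CPM in S + D at 24 h and 0.281, 0.512, 0.236 and 0.239 CPM at 72 h, against 13.97, 13.6, 13.7 and 13.1 and 11.7, 16.04, 20.8 and 22.8 CPM in control, a change of -2.94 (SE 0.42, adjusted p = 8.5e-06). PI3, a secreted inhibitor of elastase, and LRRC55, an auxiliary subunit of BK potassium channels, changed by -4.93 and -4.66. Over the keratin list, 1 of 13 members had a higher change and 5 a lower one, led by KRT14 and KRT6B (-3.05), where 6.15% of all genes were higher in change and 10.1% lower at the same cutoff.

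The ERK targets were mostly low at 24 h already, and 9 of 21 fell further. Of 21 tested members, 17 were lower at 24 h and 19 at 72 h, while 9 passed the test for a lower change and 1, FOSL1, for a higher one. Among all genes 16.5% were lower at 24 h, 28.4% at 72 h and 10.1% lower in change at the same adjusted p of 0.01 without a size cutoff. The medians of the list were -1.85, -2.95 and -0.60, beside 0.02, 0.02 and -0.01 over all genes. EGR1 (ENSG00000120738, chr5:137801168-137804992), an immediate early transcription factor, had 259, 163, 191 and 190.0 CPM in control and 10.6, 1.45, 2.396 and 1.95 CPM in S + D at 24 h. At 72 h control had 85.98, 230.5, 281 and 302 CPM and S + D 0.337, 0.128, 0.262 and 0.268 CPM. The response went from -5.61 to -9.78, with no overlap at either time. The change of -4.18 (SE 1.05, adjusted p = 0.0037) lost its call without the S + D library at 24 h that has no number or without S + D replicate 1 at 72 h, with a highest adjusted p of 0.0192.

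Feedback genes of the same pathway divided by time course. PHLDA1, a suppressor of growth signalling, changed by -2.54 (SE 0.22, adjusted p = 5.6e-09), and of the genes named after their values were seen DUSP6 (28.6% of its exon bases shared with another gene) changed by -3.26 and ETV1 by -3.81. SPRY4, an inhibitor of receptor tyrosine kinase signalling, was lasting instead. It had 30.00, 24.7, 25.3 and 26.9 CPM in control and 1.67, 1.39, 1.34 and 1.32 CPM in S + D at 24 h, and 32.4, 34.2, 34.2 and 37.03 against 2.61, 1.38, 1.34 and 1.25 CPM at 72 h. Its response was -4.22 and then -4.38, and the 95% interval of the change ran from -0.78 to 0.46. FOSL1, a partner of JUN in AP-1, was waning, with responses of -4.04 and -2.35 and a change of 1.69 (SE 0.46, adjusted p = 0.0066), a call lost in 9 of the 16 fits that left out 1 library (highest adjusted p 0.0216). Among EGFR family members and ligands, ERBB2 changed by -1.18 and ERRFI1, a feedback inhibitor of EGFR, by -1.98. In all 2 of 10 had a higher and 3 a lower change, beside 6.15% of all genes higher and 10.1% lower.

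Most cell cycle genes were lower at 24 h already, and most genes of mitosis fell further. Of 33 replication genes, 30 were lower at 24 h and 30 at 72 h, with medians of -1.13 and -1.59, and the change was lower in 12 and higher in 2. Of 28 mitosis genes all 28 were lower at both times, with medians of -1.41 and -2.99, and the change was lower in 19 and higher in none. The median change was -0.63 for replication and -1.59 for mitosis. This difference between the lists was not tested. Of 19 genes of homologous recombination, 15 were lower at 24 h and 17 at 72 h, and the change was lower in 14, with a median of -1.31. Beside these stand 16.5% of all genes lower at 24 h, 28.4% lower at 72 h, and 10.1% lower and 6.15% higher in change, so that the 2 replication genes with a higher change are a share near that of all genes.

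Sequences from the promoters of these genes are printed to show the elements by which they are usually grouped. The RefSeq promoter windows (GRCh38.p14, 250 bases before to 50 after each annotated start, several windows for some genes) were searched on both strands for TTTGAA, the CHR element, and TTTCCCGC, an E2F element. TTTGAA was found in 15.2% of all 35116 windows, in 16 of 25 windows of mitosis genes (64%) and in 1 of 37 windows of replication genes (2.7%). TTTCCCGC was found in 1.63% of all windows, in 1 of 25 mitosis windows (4%) and in 9 of 37 replication windows (24.3%). Windows of 1 gene can overlap, and 22 of the 28 mitosis and 29 of the 33 replication genes were in the table. A match is a run of letters, not a measured binding site. Each stretch reads 5′ to 3′ in the direction of the gene, with the matched letters (or their reverse complement) in capitals and 15 bases on either side.
PLK1, chr16:23678845-23678880, plus strand: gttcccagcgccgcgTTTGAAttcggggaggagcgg
CCNB2, chr15:59105102-59105137, plus strand: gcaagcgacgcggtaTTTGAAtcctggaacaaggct
TOP2A, chr17:40418027-40418105, minus strand: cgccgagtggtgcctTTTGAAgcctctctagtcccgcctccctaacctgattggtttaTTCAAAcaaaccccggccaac
BUB1B, chr15:40161031-40161066, plus strand: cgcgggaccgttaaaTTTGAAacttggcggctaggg
PCNA, chr20:5126659-5126696, minus strand: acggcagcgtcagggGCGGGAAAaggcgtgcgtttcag
MCM3, chr6:52284894-52284931, minus strand: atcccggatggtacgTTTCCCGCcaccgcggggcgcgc
TYMS, chr18:657599-657636, plus strand: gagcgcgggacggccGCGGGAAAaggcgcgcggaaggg

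The first 4 belong to mitosis genes and hold TTTGAA, and the last 3 to replication genes and hold the E2F letters. They were picked by hand from the 15 mitosis genes with TTTGAA and the 9 replication genes with TTTCCCGC in a window. Over those 15 the change ran from -2.50 for ESPL1 to 0.08 for MAD2L1. Over those 9 it ran from -1.89 for GINS2 to 0.83 for LIG1. PLK1, a kinase of mitotic entry, changed by -1.65 (SE 0.37, adjusted p = 0.0013). CCNB2, a B-type cyclin, changed by -1.85, TOP2A, which untangles chromosomes, by -1.92, and BUB1B, of the spindle checkpoint, by -1.93, all past the test. PCNA, the sliding clamp of DNA polymerases, had a change of -0.36 (SE 0.21, adjusted p = 0.19), MCM3, of the replicative helicase, of -0.31 (SE 0.17, adjusted p = 0.18), and TYMS, which makes thymidylate, of -1.41 (SE 0.35, adjusted p = 0.0032). Within the mitosis list the median change was -1.65 for the 15 genes with TTTGAA in a window and -1.55 for the 7 without, and within the replication list -0.43 for the 9 with TTTCCCGC and -0.62 for the 20 without.

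Mitosis was led by CENPE and FOXM1. CENPE (ENSG00000138778, chr4:104026506-104119602), a kinesin that aligns chromosomes, had 133, 208, 183 and 187 CPM in control and 54.4, 80.2, 75.9 and 82.5 CPM in S + D at 24 h. At 72 h control had 96.3, 126, 115 and 107 CPM and S + D 7.52, 3.68, 6.23 and 5.34 CPM. S + D was below control at both times with no overlap, and the change was -3.0001 (SE 0.43, adjusted p = 1.1e-05). FOXM1, a transcription factor of mitotic genes, fell from 91.3, 95.5, 98.8 and 97.3 CPM in S + D at 24 h to 13.00, 7.52, 9.58 and 10.1 CPM at 72 h, while control held 187, 261, 258 and 252 and 122, 143, 144 and 165 CPM, a change of -2.51 (SE 0.41, adjusted p = 4.4e-05). BIRC5, survivin, changed by -1.91 (SE 0.45, adjusted p = 0.0022). CDK1, the mitotic kinase, was lower at both times (-1.79 and -3.01), but its change of -1.23 missed the test (adjusted p = 0.039). With the numbered libraries alone CDK1 passed (adjusted p = 0.0028).

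The replication list held 2 genes with a higher change, a share near that of all genes. LIG1, the DNA ligase that joins Okazaki fragments, had 145, 156, 155 and 159 CPM in control and 85.3, 65.02, 68.5 and 69.95 CPM in S + D at 24 h, then 98.6, 89.5, 92.3 and 95.5 and 83.1, 77.4, 76.7 and 77.4 CPM at 72 h. S + D was below control at both times, but the response shrank from -1.09 to -0.26, a change of 0.83 (SE 0.14, adjusted p = 5.0e-05), and the control libraries themselves fell by 0.71 on the log2 scale (adjusted p = 3.8e-05). RFC2, a subunit of the clamp loader, changed by 0.82 (SE 0.15, adjusted p = 1.5e-04). In homologous recombination, BRIP1, a helicase that binds BRCA1, averaged 33.2 ± 3.18 and 11.9 ± 2.63 CPM at 24 h and 26.5 ± 3.42 and 1.899 ± 0.435 CPM at 72 h in control and S + D (SD, n = 4), a change of -2.32 (SE 0.41, adjusted p = 1.4e-04). BLM, a helicase, changed by -2.18, CHEK1, a checkpoint kinase, by -1.13, and BARD1, the partner of BRCA1, by -1.31, all past the test, whereas the change of BRCA1, -0.67, did not pass (adjusted p = 0.019). BRCA1 did pass with a term for the unnumbered libraries (adjusted p = 0.0097), though not with the numbered libraries alone (0.0234).

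Regulators of the G1 to S step were lower more often than higher. Of 31 tested, 1 was higher and 16 lower at 24 h, 6 higher and 16 lower at 72 h, and the change was higher in 4 and lower in 11. The shares of all genes were 15.2% higher and 16.5% lower at 24 h, 27.9% and 28.4% at 72 h, and 6.15% and 10.1% in change, so the share higher at 72 h was below that of all genes. CCND1 (ENSG00000110092, chr11:69455924-69469242), cyclin D1, had 264, 254, 252 and 263 CPM in control and 31.03, 43.6, 46.1 and 43.6 CPM in S + D at 24 h, and 287, 288, 278 and 275 against 16.7, 15.4, 19.3 and 20.4 CPM at 72 h. Most of its fall was present at 24 h (-2.65), and a further -1.32 (SE 0.24, adjusted p = 1.4e-04) followed. MYC responded by -0.78 at 24 h and -2.35 at 72 h, a change of -1.56 (SE 0.22, adjusted p = 7.3e-06). E2F1 changed by -1.53 (SE 0.42, adjusted p = 0.0072), a call lost in 12 of the 16 fits that left out 1 library, with a highest adjusted p of 0.0185.

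Further genes of this step fell in the same way. E2F2 changed by -1.83, E2F7 by -2.07, CCNA2 (cyclin A2) by -1.72, CCNE2 (cyclin E2) by -2.12, SKP2, which marks p27 for degradation, by -0.96, RBL1 (p107) by -1.24 and CDK2 by -0.68, each past the test. The call of CDK2 was lost in 12 of the 16 fits that left out 1 library, with a highest adjusted p of 0.0207, and without the filter on low counts (0.0114). CCNE2 shares 37.1% of its exon bases with another gene. CDC25A, a phosphatase that activates CDKs, had a change of -1.09 that missed the test (adjusted p = 0.011) but passed in 8 of 9 alternatives, with the numbered libraries alone at 0.0012. ESR2, estrogen receptor β, held 0.09405, 0.0605, 0 and 0 CPM in control and 0.146, 0.151, 0.1598 and 0.0898 CPM in S + D at 24 h, and 0.135, 0.0335, 0.0529 and 0.0556 against 1.46, 0.8004, 1.41 and 1.22 CPM at 72 h. It was higher with S + D at 72 h (4.05, adjusted p = 1.4e-06) but the change, 2.41 with a 95% interval from -0.09 to 4.90, did not pass (adjusted p = 0.14), and the gene was under 2 CPM throughout. ESR1, estrogen receptor α, had a change of -0.73 (95% interval -1.30 to -0.17, adjusted p = 0.046), which passed with a term for the unnumbered libraries (adjusted p = 0.00396) but not with the numbered ones alone (0.0141).

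**Figure D4:**
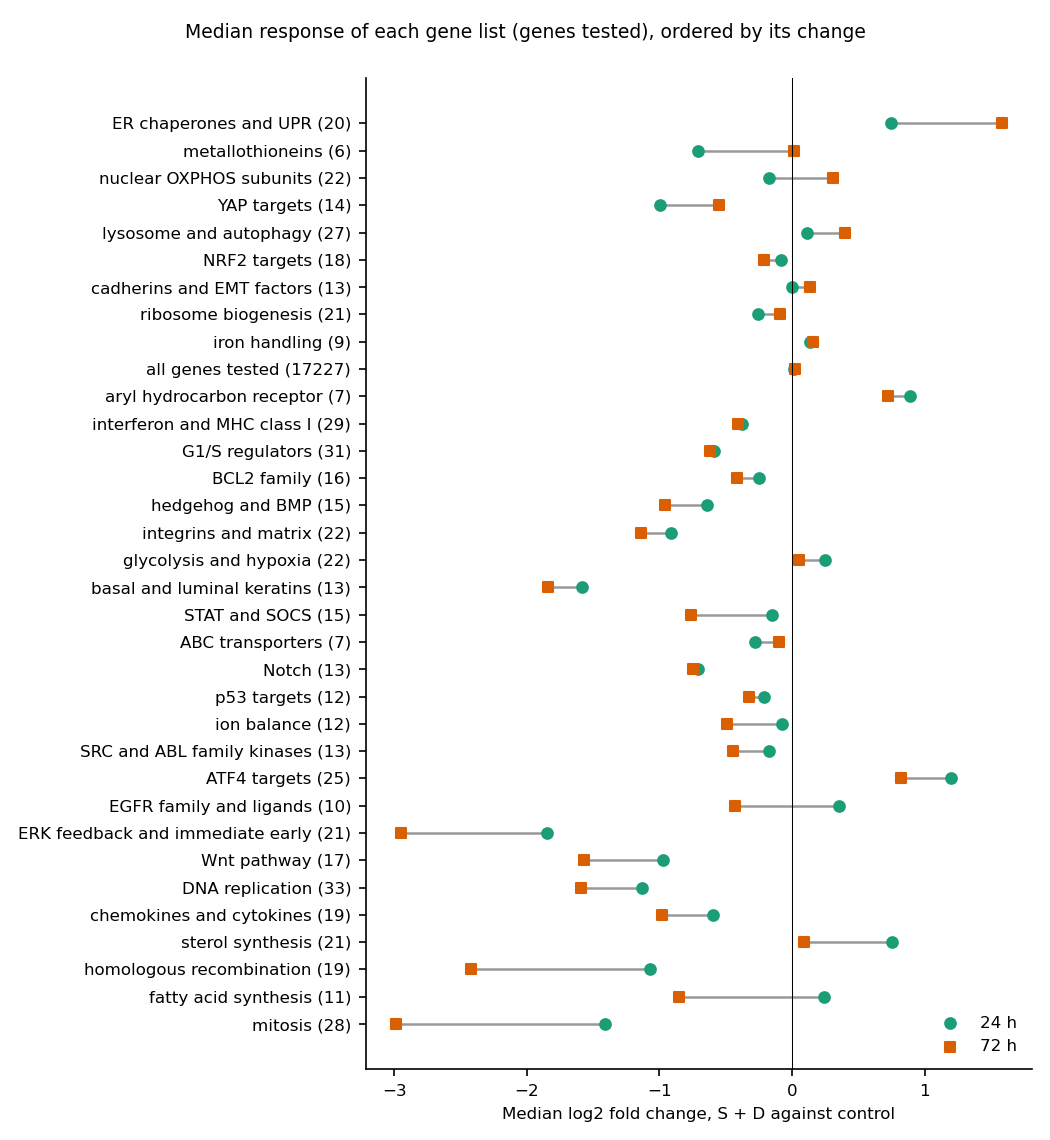
Median response to S + D of each gene list (horizontal axis, log2 fold change against control) at 24 h (circles) and 72 h (squares), with the number of genes tested in brackets and the lists ordered by the median change. Mitosis moved from -1.41 to -2.99 and the ER chaperones from 0.74 to 1.58.

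More ER chaperones were higher at 72 h than at 24 h, while fewer targets of ATF4 were. Of 20 tested ER chaperones and genes of the unfolded protein response, 9 were higher at 24 h and 18 at 72 h, with medians of 0.74 and 1.58, and the change was higher in 6 and lower in 1. Of 25 tested ATF4 targets, 20 were higher at 24 h and 14 at 72 h, with medians of 1.199 and 0.82, and the change was lower in 6 and higher in none. Over all genes 15.2% were higher at 24 h and 27.9% at 72 h, and in change 6.15% were higher and 10.1% lower.

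The ER stress response element, CCAAT and CCACG with any 9 bases between them, is printed for members of the chaperone list because it is rare elsewhere and members that hold it differed in course. It was found in 27 of the 35116 RefSeq windows (0.0769%) and in 9 of 25 windows of the list (36%), which belong to 7 of the 19 genes in the table. The capitals mark the whole element or its reverse complement, and the direction is that of the gene.
HSP90B1, chr12:103930201-103930354, plus strand: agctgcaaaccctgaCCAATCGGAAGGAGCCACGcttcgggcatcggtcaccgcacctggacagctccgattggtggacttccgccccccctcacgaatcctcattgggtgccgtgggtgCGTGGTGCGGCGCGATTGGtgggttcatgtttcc
HSPA5, chr9:125241376-125241424, minus strand: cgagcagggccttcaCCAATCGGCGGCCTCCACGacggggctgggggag
CALR, chr19:12938369-12938417, plus strand: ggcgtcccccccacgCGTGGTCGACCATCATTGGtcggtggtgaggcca
CRELD2, chr22:49918539-49918587, plus strand: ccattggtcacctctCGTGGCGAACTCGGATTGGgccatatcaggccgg
XBP1, chr22:28800588-28800636, minus strand: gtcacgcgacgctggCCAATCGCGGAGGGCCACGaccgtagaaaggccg

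HSP90B1 and HSPA5, the ER forms of HSP90 and HSP70, carried the element and rose. HSP90B1 had 872, 821, 773 and 769 CPM in control and 1203, 917, 896 and 939 CPM in S + D at 24 h, and 925, 991, 980.3 and 888 against 2402, 3257, 2765 and 2748 CPM at 72 h. The response was 0.29 at 24 h (adjusted p = 0.17) and 1.56 at 72 h, a change of 1.27 (SE 0.24, adjusted p = 2.5e-04). HSPA5, named here for its element, averaged 339.8 ± 26.3 and 1143 ± 328 CPM in control and S + D at 24 h and 379 ± 24.1 and 3926 ± 443 CPM at 72 h (SD, n = 4), a change of 1.62 (SE 0.42, adjusted p = 0.0045). CALR, calreticulin, changed by 1.08 (SE 0.28, adjusted p = 0.0042), while CRELD2 had a change of 1.27 that missed the test (adjusted p = 0.014).

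XBP1, a transcription factor of the same response, carried the element and went the other way. It had 507, 476, 467 and 453 CPM in control and 633, 587, 589 and 613 CPM in S + D at 24 h, above control in every library, although the fitted response of 0.35 missed the test (adjusted p = 0.062). Later, at 72 h, it had 686, 589.8, 614 and 595 CPM against 454, 400.1, 298 and 294 CPM, below control, and the change was -1.13 (SE 0.21, adjusted p = 2.6e-04). The other members with the element were CANX, calnexin, with a change of 0.00 and PDIA6, a disulphide isomerase, with 0.28, neither past the test. Among members of the list with a promoter window, the median change was 1.08 for the 7 genes with the element and 0.75 for those without it. This difference was not tested. Gene counts do not separate the spliced form of XBP1 from the unspliced one. HERPUD1, of ER-associated degradation, was lasting, with 115, 120.0, 117 and 114 CPM in control and 748, 677, 669.6 and 689 CPM in S + D at 24 h and 135, 153, 169 and 158 against 775, 1167, 1016 and 985 CPM at 72 h. Its change was 0.10 with a 95% interval from -0.58 to 0.79.

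Among the ATF4 targets ASNS, asparagine synthetase, was the clearest. It had 128, 89.6, 86.9 and 89.3 CPM in control and 266, 216, 215 and 207 CPM in S + D at 24 h, and 169, 117, 129 and 117 against 137, 121, 101 and 106 CPM at 72 h. The groups were apart at 24 h and overlapped at 72 h, with a change of -1.39 (SE 0.24, adjusted p = 8.5e-05), though 49.3% of its exon bases are shared with another gene. DDIT4, an inhibitor of mTORC1, had 213, 114, 137 and 142 CPM in control and 769, 293, 306 and 299 CPM in S + D at 24 h, and 468, 344, 362 and 412 against 372, 317, 274 and 258 CPM at 72 h. Here the control libraries rose by 1.39 (adjusted p = 0.0091) while the S + D libraries overlapped between times, and the change of -1.84 (SE 0.46, adjusted p = 0.0037) lost its call without the unnumbered S + D library at 24 h (adjusted p = 0.0112). VLDLR changed by -0.71 (SE 0.14, adjusted p = 5.6e-04).

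Genes of cholesterol and fatty acid synthesis were mostly higher or not past the test at 24 h, and the change was lower in 17 of 32. Of 21 sterol genes 15 were higher and none lower at 24 h, 5 were higher and 5 lower at 72 h, and the change was lower in 10 and higher in none, with a median of -0.69. Of 11 fatty acid genes 3 were higher and none lower at 24 h, 2 were higher and 5 lower at 72 h, and the change was higher in 1 and lower in 7, with a median of -1.45. Among all genes 15.2% were higher at 24 h, 27.9% higher and 28.4% lower at 72 h, and 10.1% lower in change, so the sterol counts at 72 h lay near or below the shares of all genes in both directions.

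Among the lipid genes ACLY, which makes cytosolic acetyl-CoA, had 493, 434, 448 and 456 CPM in control and 404, 468, 506 and 492 CPM in S + D at 24 h and 381, 437, 435 and 463 against 176, 137, 163 and 165 CPM at 72 h, overlapping at 24 h and apart at 72 h, a change of -1.45 (SE 0.15, adjusted p = 5.9e-08). ACSS2, an acetyl-CoA synthetase, changed by -1.09 (SE 0.13, adjusted p = 7.3e-07). Named after its values were seen, SCD, the stearoyl-CoA desaturase, responded by 1.24 at 24 h and -1.03 at 72 h, a change of -2.27 (SE 0.28, adjusted p = 1.7e-06), and FASN, fatty acid synthase, changed by -2.01. FADS2, also named after the fact, was the member with the higher change, 1.12. ELOVL6, an elongase, passed at neither time alone and changed by -1.66 (SE 0.45, adjusted p = 0.0066), a call lost in 12 of the 16 fits that left out 1 library (highest adjusted p 0.0182).

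**Figure D5:**
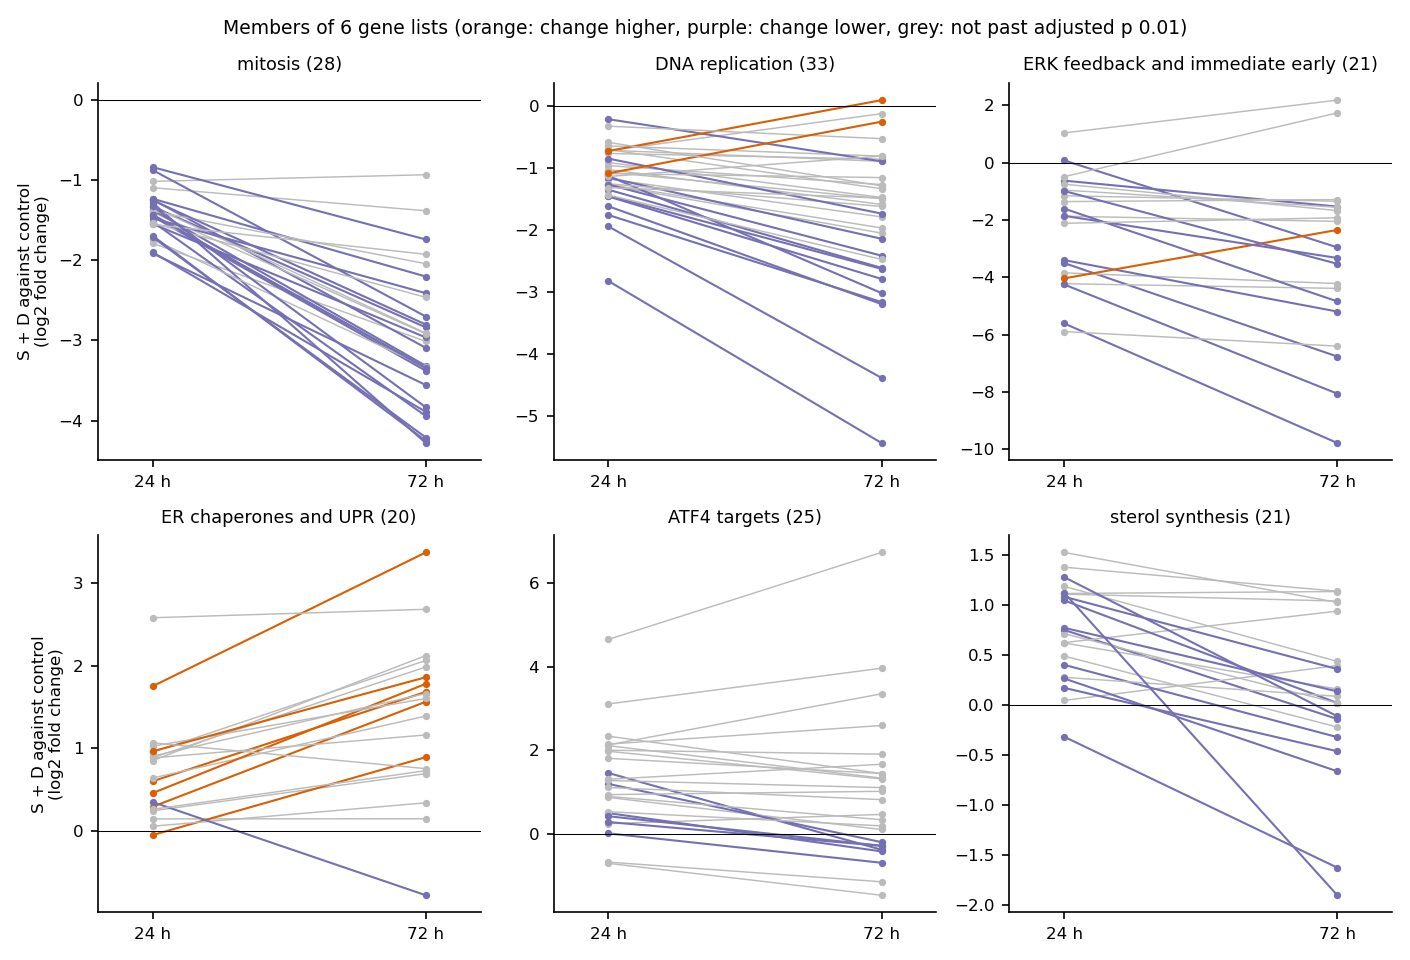
Response to S + D (vertical axis, log2 fold change against control) at 24 and 72 h for each tested member of 6 gene lists, 1 line per gene, coloured by whether the change passed an adjusted p of 0.01. The 28 mitosis lines lie below 0 at both times and 19 of them fall past the test, while 10 of the 21 sterol lines fall.

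The reversed higher genes were below control at 24 h and above it at 72 h. MYL9 (ENSG00000101335, chr20:35169900-35179850), a regulatory light chain of myosin, had 1.998, 1.39, 1.32 and 1.51 CPM in control and 0.293, 0.301, 0.447 and 0.419 CPM in S + D at 24 h. Later, at 72 h, control had 1.27, 0.837, 0.741 and 0.945 CPM and S + D 4.77, 10.4, 8.51 and 9.16 CPM. The groups were apart in opposite directions, which the class and the naming rule required, with a change of 5.19 (SE 0.57, adjusted p = 2.9e-07). CTNNAL1, related to α-catenin, had 0.4102, 0.663, 0.575 and 0.359 CPM in S + D at 24 h and 5.95, 6.69, 4.82 and 5.61 CPM at 72 h, against 2.73, 1.73, 1.76 and 1.73 and 1.72, 0.837, 1.01 and 1.39 CPM in control, a change of 4.19 (SE 0.41, adjusted p = 4.8e-08). ANKRD1, a target of YAP, had 0.645, 1.05, 0.639 and 0.898 and then 9.71, 15.7, 12.05 and 13.1 CPM, against 4.51, 2.84, 2.44 and 3.07 and 4.85, 3.52, 3.39 and 3.197 CPM, a change of 3.75 (SE 0.43, adjusted p = 5.1e-07). SAMD4A, an RNA-binding translational repressor, went from a response of -1.01 to 1.27, a change of 2.28 (SE 0.35, adjusted p = 2.4e-05).

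Few other YAP targets passed the test for the change. Of 14 tested, 9 were lower and none higher at 24 h, 7 were lower and 3 higher at 72 h, and the change was higher in 2, ANKRD1 and CCN1 (1.35, SE 0.31, adjusted p = 0.0019), and lower in none. The median change was 0.33. Of all genes 16.5% were lower at 24 h, 27.9% higher and 28.4% lower at 72 h, and 6.15% higher in change, so 3 of 14 higher at 72 h is below the share of all genes.

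The reversed lower genes were above control first and below it later. PDE4B (ENSG00000184588, chr1:66258197-66840262), a phosphodiesterase of cyclic AMP, had 32.8, 25.2, 24.5 and 24.1 CPM in control and 64.99, 73.8, 78.7 and 76.7 CPM in S + D at 24 h. At 72 h it had 44.7, 54.04, 51.6 and 48.8 CPM against 26.9, 26.2, 25.2 and 25.2 CPM, and the S + D libraries lay within the range of control at 24 h. The change was -2.41 (SE 0.16, adjusted p = 2.4e-11), and the control arm rose by 0.90 (adjusted p = 1.2e-05). CATSPERB, which belongs to the calcium channel of sperm, had 3.43, 6.93, 5.75 and 5.39 CPM in S + D at 24 h and 0.393, 0.448, 0.288 and 0.268 CPM at 72 h, with control between 2.58 and 3.72 CPM at both times, a change of -3.98 (SE 0.36, adjusted p = 9.7e-09). EVA1C changed by -2.78 (SE 0.22, adjusted p = 7.1e-10) between responses of 1.12 and -1.66.

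Early responses were few. NPAS2, a circadian transcription factor, had 26.8, 22.5, 22.5 and 23.9 CPM in control and 46.1, 81.1, 79.8 and 80.8 CPM in S + D at 24 h, and 30.98, 33.1, 34.9 and 35.9 against 19.7, 25.00, 27.3 and 27.2 CPM at 72 h. S + D was above control at 24 h and slightly below it at 72 h, with a change of -2.03 (SE 0.22, adjusted p = 2.9e-07), and without the unnumbered libraries NPAS2 and DDIT4 both counted as reversed. DIRAS2, a small GTPase, responded by 2.18 and then 0.24, a change of -1.94 (SE 0.33, adjusted p = 6.8e-05). PDE8B, another phosphodiesterase, changed by -1.88, with 51.6% of its exon bases shared with another gene. On the lower side OLFML3 (ENSG00000116774, chr1:114522013-114578194), a secreted glycoprotein, had 99.3, 91.5, 94.9 and 95.6 CPM in control and 8.47, 16.2, 16.7 and 16.3 CPM in S + D at 24 h, and 26.2, 17.2, 16.7 and 19.2 against 17.8, 22.2, 20.1 and 19.4 CPM at 72 h. Its change of 2.73 (SE 0.25, adjusted p = 9.7e-09) came mainly from control, which fell by 2.27 (adjusted p = 4.6e-09), against 0.46 in the S + D arm.

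PHLDB1, a cytoskeletal adaptor, had a change of similar direction with the larger movement in the treated arm. It had 13.8, 13.9, 15.2 and 14.6 CPM in S + D at 24 h and 36.8, 33.2, 46.3 and 46.2 CPM at 72 h, against 42.6, 53.7, 53.02 and 55.5 and 26.7, 32.7, 34.7 and 42.1 CPM in control. The groups were apart at 24 h and overlapped at 72 h, with a change of 2.09 (SE 0.23, adjusted p = 2.9e-07). TAGLN, an actin-binding protein, and CD22, a lectin, changed by 1.63 and 1.82, and TAGLN shares 47.8% of its exon bases with another gene. Of the genes that passed at neither time, HEG1, a membrane receptor of endothelial junctions, changed by 1.65 (SE 0.42, adjusted p = 0.0038) and CD302, a lectin, by -1.64 (SE 0.43, adjusted p = 0.0054), with 74.4% of the exon bases of CD302 shared. The call was lost in 6 of the fits that left out 1 library for CD302 and in 1, without the unnumbered control at 72 h, for HEG1.

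The 5 waning genes kept part of a strong early response. MAPK4 (ENSG00000141639, chr18:48086457-48258196), an atypical MAP kinase, had 1.58, 1.91, 2.17 and 2.67 CPM in control and 22.2, 54.7, 50.9 and 52.6 CPM in S + D at 24 h, and 2.32, 5.66, 4.55 and 4.78 against 6.71, 9.12, 10.5 and 11.01 CPM at 72 h. S + D was above control at both times, but the response shrank from 4.44 to 1.11, a change of -3.33 (SE 0.41, adjusted p = 1.2e-06). SMOC1, a matricellular protein, had 23.2, 38.4, 36.6 and 38.6 CPM in S + D at 24 h and 9.46, 8.52, 7.46 and 7.99 CPM at 72 h with control under 1 CPM at both times, a change of -2.54 (SE 0.41, adjusted p = 3.9e-05). LPO, lactoperoxidase, changed by -1.83, and 26.3% of its exon bases are shared. IVL, involucrin of the cornified envelope, had 7.34, 7.69, 7.54 and 9.004 CPM in control and 0.469, 0.392, 0.479 and 0.389 CPM in S + D at 24 h, and 11.3, 9.61, 9.02 and 9.54 against 5.31, 5.25, 4.06 and 4.86 CPM at 72 h. Its libraries stayed below control, but the response went from -4.18 to -1.02, a change of 3.16 (SE 0.32, adjusted p = 5.9e-08). The last waning gene was FOSL1.

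Lasting genes were found on both sides. RASA3 (ENSG00000185989, chr13:114747194-114898098), a GTPase-activating protein of RAS, had 18.6, 18.6, 16.9 and 18.2 CPM in control and 99.8, 96.4, 101 and 101 CPM in S + D at 24 h, and 22.8, 23.2, 23.5 and 24.2 against 119.9, 136, 143 and 141 CPM at 72 h. Its response was 2.46 and then 2.53, with a 95% interval of the change from -0.36 to 0.49. CLGN and KDELR3, an ER chaperone and a retrieval receptor for ER proteins, had responses of 2.72 and 2.29, and of 2.45 and 2.61. FOXQ1, a forkhead transcription factor, had 58.7, 63.4, 65.7 and 65.4 CPM in control and 3.02, 5.31, 4.92 and 5.93 CPM in S + D at 24 h, and 44.1, 37.6, 40.00 and 37.95 against 1.91, 3.01, 2.67 and 1.82 CPM at 72 h, responses of -3.72 and -4.08. The keratin KRT23 and the kallikrein KLK10 had changes of 0.04 and -0.03, with intervals from -0.58 to 0.67 and from -0.65 to 0.59. WNT3A, a Wnt ligand, was lasting too, with responses of -2.53 and -2.63.

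Each drug given alone, at the same dose and times, had a change of its own, and that of S + D was set against it. All 3 share the control libraries, which cancel in the difference between treatments. The change differed between S + D and Das in 618 genes (3.59%), 187 higher and 431 lower with S + D (950 with the numbered libraries alone), and between S + D and Sal in 72 genes (0.418%), 46 higher and 26 lower. A gene that is not among the 72 is not thereby shown to follow Sal. When 1 library was left out this last count ran from 44, without S + D replicate 2 at 24 h, to 113, without the unnumbered S + D library at 24 h, and it was 297 with the numbered libraries alone.

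Many cell cycle genes passed the test against Das and few passed it against Sal. Of 28 mitosis genes, 23 had a lower change with S + D than with Das and none passed the test against Sal, with median differences of -1.83 and 0.25, where 6.58% of all genes were lower against Das at an adjusted p of 0.01 alone and 1.56% differed from Sal in either direction. For CENPE the difference from Das was -3.63 (SE 0.44, adjusted p = 2.8e-06), and from Sal -0.70 with a 95% interval from -1.58 to 0.18, which does not show that the changes were equal. Of 19 genes of homologous recombination 14 were lower against Das and none passed against Sal. In the sterol list 6 of 21 were lower against Das and none passed against Sal. AGT, ITGA1, DUSP4 and FN1 each differed from Das, by 3.61, 3.82, -2.49 and -2.997, and missed the test against Sal.

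The genes that differed from both single drugs included several outside the cell cycle. IVL had a higher change with S + D than with Sal by 4.07 (SE 0.32, adjusted p = 5.1e-09) and than with Das by 3.69 (SE 0.35, adjusted p = 7.8e-08). OLFML3 was higher by 2.78 and 1.66, CTNNAL1 by 2.75 and 1.77, ANKRD1 by 1.92 and 2.20, FOSL1 by 2.45 and 2.97, and PHLDB1 by 1.63 and 1.40, each past the test. SMOC1 differed by -2.49 (SE 0.40, adjusted p = 4.4e-04) from Sal and by -1.22 (SE 0.31, adjusted p = 0.0064) from Das. The metallothionein MT2A, which binds zinc and copper, had 504, 549, 569 and 579 CPM in control and 159, 116, 112 and 124 CPM in S + D at 24 h, and 452, 371, 369.9 and 525 against 224, 274, 227 and 237 CPM at 72 h. It was below control at both times and rose within S + D, with a change of 1.27 (SE 0.22, adjusted p = 1.3e-04) that was higher by 2.21 than with Sal and by 1.45 than with Das. Some genes differed from Sal and missed the test against Das, among them FOXQ1 (2.40, SE 0.31, adjusted p = 2.0e-05), CLGN (-2.32, SE 0.26, adjusted p = 2.2e-06), KLK10 (1.75) and RASA3 (-1.15), all of them lasting with S + D.

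The last comparison set the S + D response against the sum of the log2 responses to Sal and Das and asked whether the gap moved between 24 and 72 h. It moved in 155 genes (0.9%), 124 upward and 31 downward. An upward value means that S + D stood higher relative to the sum at 72 h than at 24 h. IVL moved by 4.61 (SE 0.45, adjusted p = 7.9e-07), KRT14 by 3.39 (SE 0.60, adjusted p = 0.0014), FOSL1 by 3.72 (SE 0.68, adjusted p = 0.0017) and SPRY4 by 3.28 (SE 0.44, adjusted p = 3.2e-05). MYC moved by 1.56, FOXQ1 by 2.65 and LRRC55 by 4.37, and CLGN moved by -2.47 (SE 0.36, adjusted p = 1.9e-04). All but CLGN were below control with S + D at both times. The count ran from 102 without control replicate 3 at 72 h to 206 without the unnumbered S + D library at 24 h, and was 704 with the numbered libraries alone.

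Further lists are given by their counts for the change, with 6.15% of all genes higher and 10.1% lower. Of the 27 tested members of the lysosome and autophagy list 4 were higher and 1 lower. Those with the smallest p were LAMP1 (0.60), a lysosomal membrane protein, and NEU1 (1.15), a sialidase. ATG9B, described above with a higher change, is not a member of this list. Of 22 nuclear subunits of oxidative phosphorylation 4 were higher, led by ATP5MC1 (1.16) and SDHB (0.75), and none lower. Of 29 interferon and MHC class I genes 1 was higher and 5 lower, led by OAS2 and IFIT3 (-1.45). Of 19 chemokines and cytokines 1 was higher and 3 lower, with the acute phase gene SAA2 at -2.47, and the chemokine CXCL10 was at 0 to 1 counts with S + D at 72 h against 30 to 40 in control, at least 11.4-fold lower.

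Among signalling lists, 17 Wnt genes had 6 lower and none higher, with WNT5A at -1.08, and 15 hedgehog and BMP genes had 3 lower, with SMO, the transducer of hedgehog signals, at -1.26 and ID2 at -1.21. Of 15 genes of the STAT and SOCS list, which also holds BCL3, 1 was higher and 4 lower, with BCL3 at -2.06 and STAT6 at -0.89. Of 13 Notch genes 3 were lower, with HES1 at -1.21 and HES2 at -1.10. SRC and ABL family kinases, the targets of Das, had 1 of 13 lower, SRC itself at -1.19 (SE 0.18, adjusted p = 2.0e-05). Of the 22 tested members of the integrin and matrix list 1 was higher, TIMP1, and 4 lower, with ITGB5 at -0.93. ITGA1, described above with a higher change, is not a member of this list. Of 13 cadherins and factors of epithelial to mesenchymal transition 1 was higher, ZEB1 (2.78), and 2 lower.

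Stress, metal and survival lists are given in the same way, beside 6.15% of all genes higher and 10.1% lower in change. Of 18 NRF2 targets 4 were higher and 4 lower, with GCLM at 1.13 and NQO1 at -1.22. Of 6 genes of the metallothionein list 3 metallothioneins were higher, with MT1E at 0.93 beside MT2A, and 2 zinc transporters lower. Of 9 iron genes 2 were higher and 2 lower, with STEAP3 at 0.56 and STEAP4 at -2.08. Of 12 ion balance genes 5 were lower, with ATP1B1, a subunit of the sodium pump, at -0.94 and SLC38A2 at -1.04. Of 12 p53 targets none was higher and 2 were lower, with FAS, which shares 25.7% of its exon bases with another gene, at -2.06 and SESN1 at -0.94. Of 16 genes of the BCL2 family list 2 were lower. These were BCL2L11 (BIM) at -1.04 and BIRC3, an inhibitor of apoptosis outside that family, at -1.43. Of 22 glycolysis and hypoxia genes 1 was lower, PDK1 at -0.95, of 7 genes of the aryl hydrocarbon receptor 1, CYP1B1 at -1.23, and of 21 ribosome biogenesis genes 1 was higher and 2 lower, among them UTP20 at -1.59 and WDR12 at -1.06. Of 7 ABC transporters 1 was higher and 1 lower, with ABCC4 at 1.04 and ABCG1 at -2.56. NCL, nucleolin, had a change of -0.46 (adjusted p = 0.16) and passed with the numbered libraries alone (adjusted p = 0.0018), and CD34, a sialomucin, was at 0 to 2 counts with S + D at 72 h against 8 to 24 in control, at least 5.36-fold lower (two-sided p = 0.0286 by an exact permutation test, which cannot go lower with 4 libraries a group).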

How the data were processed

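Gene counts of single-end TruSeq libraries were deposited by the authors as whole numbers per gene, 1 column per library, with no normalization. Per the study's methods and notes, reads were demultiplexed with bcl2fastq 2.19 and aligned with STAR 2.5.2 to GRCh37, and the authors ran DESeq2 on the counts. The counter, its annotation and its use of strand are not given in the sources used here, so a gene and an overlapping or antisense partner cannot be told apart. Of 48804 genes listed, 33132 had counts, and 46537 identifiers were matched to GENCODE (version 44 on GRCh37) for symbols and positions. Each group had 4 cultures treated separately.

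Counts were fitted with edgeR 4.0.16 (R 4.3.3) by its quasi-likelihood test over all 32 libraries, 1 term per treatment and time, with TMM scaling and a minimum count of 10, which kept 17227 genes. Adjusted p-values are Benjamini-Hochberg over these genes. A count of genes needs an adjusted p under 0.01 and a log2 value beyond 1.5, and a named gene or list member counts as changed at an adjusted p under 0.01 alone. CPM values use the TMM-scaled totals, and SE is the log2 value divided by the root of the F statistic. The members and gene lists were chosen with earlier results of these data known. Named by rule were up to 4 genes per class and direction with the largest change (2 for the class past at neither time), 5 CPM or more as the mean of some group and libraries of S + D and control that do not overlap, the 2 members of each list with the smallest p among those called, and genes that the study's text names. Other genes are said to be named after their values were seen. The motif letters were searched in RefSeq promoter windows on GRCh38.p14, which were used for sequence and not for the positions of genes. Counting intervals and floors of 3 counts per library cover counting error only. Alternatives tried were other scalings, no filter on low counts, the 16 libraries alone, a replicate block, the numbered libraries alone, a term for the unnumbered libraries, DESeq2 1.42.0, other cutoffs and leaving out each library. Mitochondrially encoded genes and a few list members were not analysed here, and a few genes that the rule names are not reported here. The script was tested on simulated counts.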

Additional observations from a re-analysis of the deposited data

Results flagged for a closer look

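In groups of 4 libraries, 44 genes with printed values were searched for a library far from the other 3, by Dixon's ratio at its 95% critical value. That value was exceeded in 31 of 176 groups, where chance gives about 1 in 20, and in 29 of the 31 the library was the one without a replicate number. In control at 24 h that library was high for FN1 (102 CPM), E2F1 (122), CTNNAL1 (2.73), PDE4B (32.8), HSPA5 (379) and ASNS (128), and low for SFRP1 (139), CLCA2 (21.4) and FOXM1 (187). In S + D at 24 h it was high for FN1 (67.0 CPM, where the others ran from 27.5 to 30.8), GRIN2C (2.52), EGR1 (10.6, others 1.45 to 2.40), DDIT4 (769, others 293 to 306), HSPA5 (1633), HSP90B1 (1203) and ASNS (266). It was low there for DUSP4 (80.8 CPM), SFRP1 (79.0), CLCA2 (2.96), CCND1 (31.0), NPAS2 (46.1), OLFML3 (8.47), MAPK4 (22.2) and SMOC1 (23.2). In control at 72 h it was low for TIMP1 (23.4 CPM) and DUSP4 (159), and in S + D at 72 h it was high for E2F1 (20.2 CPM), SPRY4 (2.61) and LIG1 (83.1). The only other libraries set apart were replicate 1 of S + D at 72 h for KRT14 (0.512 CPM) and for HSPA5 (4587 CPM, others 3653 to 3760.0).

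By a test of the difference itself, responses to S + D differed between 24 and 72 h in 962 genes. The change also differed between S + D and Sal in 72 genes and between S + D and Das in 618, and the gap between S + D and the sum of the single drugs moved in 155.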

How the results depend on the processing

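The 962 genes with a changed response numbered between 964 and 1306 under the other scalings, filters, library sets and DESeq2, and the numbered libraries alone gave 1306, of which 912 were shared. No named gene past the test turned its direction, 13 values past it in neither fit changed sign, and 118 of 128 kept their call in all 9 alternatives of this kind. Without any scaling factor the median change over all genes was -0.0925, and no scaling moved it beyond 0.1.

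Deviations of same-numbered libraries correlated at 0.0593 to 0.290 for number 1, 0.117 to 0.191 for number 2 and 0.0467 to 0.220 for number 3. For the unnumbered ones this was 0.482 to 0.637. All 24 same-number pairs were above 0, 3 of them at or under 0.1. Over numbered and unnumbered libraries together, 10 of 16 correlated best with their own number. Pairs of different numbers had a median of -0.0463 and a highest value of 0.279, above every pair of number 2 or 3. Deviations from a group mean sum to 0, so a shift of the unnumbered library moves the others of its group together. These values therefore set the unnumbered libraries apart but cannot show whether libraries of number 1, 2 or 3 deviate together. The labels do not say what the numbers stand for. The main fit has no term for them, and its calls moved when one was added. With the number as a replicate block the count of changed genes rose from 962 to 1175, growing higher genes to 110, reversed genes to 65, differences from Sal to 167, movements against the sum of the single drugs to 404 and changes within control to 104. Under it the changes of CDK1, CDC25A, BRCA1, NCL and ESR1 passed as well. With a term for the unnumbered libraries these were 113, 68, 172, 421 and 107. The numbered libraries alone gave 94 reversed genes, 297 differences from Sal, 950 from Das, 704 against the sum and 160 within control. DESeq2 gave 126 differences from Sal and 264 against the sum, and a fit of the 16 libraries gave 130 growing higher genes. The cause of these shifts was not tested.

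Looser or stricter cutoffs moved counts by construction. At an adjusted p of 0.01 alone there were 1059 higher and 1746 lower changes, 5468 responses at 24 h and 9705 at 72 h, 663 late higher, 895 late lower, 229 growing higher, 667 growing lower, 190 early, 85 reversed and 32 waning genes, 268 differences from Sal, 1794 from Das, 320 against the sum, 6044 within S + D and 475 within control. At an adjusted p of 0.05 with a log2 value beyond 1 these were, in the same order, 872, 1474, 2718, 5988, 457, 630, 286, 676, 120, 142, 16, 377, 1602, 804, 3111 and 265. With both cutoffs asked at each time, growing genes were 28 higher and 121 lower, early 23, reversed 5 and waning 2, and an interval within 1.5-fold left 19 lasting genes.

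When each library was left out in turn, movements against the sum ran from 102 to 206, changes within control from 25 (without control replicate 2 at 72 h) to 68 (without the unnumbered control at 72 h), differences from Sal from 44 to 113 and growing higher genes from 47 (without control replicate 2 at 24 h) to 74. Of the named genes 14 changed their call in at least 1 of these fits. Differences in genes under about 1 CPM rest on few counts and were limited by depth.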

Other observations

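Long non-coding RNAs made up 2265 of the 17227 genes tested (13.1%). They were 88 of the 514 late genes (17.1%), with 44 of 202 higher and 44 of 312 lower, 31 of the 360 growing genes (8.61%), 6 of the 36 early genes (16.7%), 6 of the 40 reversed genes and 13 of the 102 lasting genes (12.7%), and none of the 5 waning ones. These shares were not tested against that of all genes. PRECSIT, described above among the growing higher genes, was the non-coding RNA named by the size of its change.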
